A study of Mus musculus with 9 samples.

Results

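Collagen chain genes encode the polypeptides that wind around each other into collagen molecules. They were chosen here by symbol alone, as every gene in the mRNA tables whose official symbol has the form Col, a type number, a and a chain number. That gave 44 of 21950 genes. By known structure, 11 of them encode fibrillar chains, 6 the type IV chains of basement membranes, 3 other collagens of the basement membrane zone, 6 type VI chains, 9 fibril-associated chains (FACIT), 3 short-chain collagens, 4 transmembrane collagens and 2 other collagens.

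As background, fibrillar collagens such as types I and III assemble into cross-linked fibers of the interstitium and accumulate in scars. Type IV chains form the sheet-like network of every basement membrane. In the kidney, the products of Col4a3, Col4a4 and Col4a5 make the mature network of the glomerular basement membrane, and those of Col4a1 and Col4a2 lie in the mesangial matrix and in the basement membranes of tubules and vessels.

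The study sequenced ribosomal RNA-depleted RNA from the renal cortex of 9 male C57BL/KsJ mice aged 15 weeks, with 1 library per mouse and 3 mice per group. Control mice were nondiabetic db/m littermates, which carry 1 mutant copy of the leptin receptor gene (Lepr), and were given vehicle. The dbdb mice were homozygous for the db mutation of Lepr (stock BKS.Cg-Dock7m+/+Leprdb/Nju), a model of type 2 diabetes, and also received vehicle. The dbR mice had the same genotype and were given the PPAR-gamma agonist rosiglitazone at 20 mg/kg/day. Gavage ran for 8 weeks, between 7 and 15 weeks of age. The model gives obesity and diabetes through loss of leptin signaling, so an effect of diabetes and one of leptin receptor loss cannot be told apart.

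Levels are given in FPKM, the number of sequenced fragments divided by transcript length and by the depth of the library, added over the transcripts of each gene. The files hold no counts. The steps between low values correspond to an estimated 27.1 M, 25.9 M and 27.7 M fragments (M, 1e6) in Control replicates 1 to 3, 25.6 M, 26.2 M and 26.8 M in the dbdb libraries, and 30.9 M, 28.5 M and 24.8 M in the dbR libraries. At that depth a gene such as Col4a1 rests on an estimated 6700 to 10800 fragments per library, Col6a2 on 194 to 798, and Col19a1 on 0 to 94.3. Across all genes, Spearman correlations lay between 0.989 and 0.994 for libraries of the same group and between 0.975 and 0.992 for libraries of different groups.

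Control replicate 1 stood apart from the other Control libraries in several of the values used here. It had the highest Control level of Col1a1, Col1a2 and Col3a1. Its summed level of 4 vascular smooth muscle markers was 33.2 FPKM, against 15.0 and 14.4 in the other Controls. Its summed level of 3 erythroid markers was 25.9 against 2.54 and 6.78, and that of 5 urothelial markers was 3.36 against 1.09 and 0.210. The comparisons of those 3 collagen genes with Control are given with and without this library, and collagen calls of the other genes that changed without it are named.

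Of the 44 genes, 31 had a mean of at least 0.1 FPKM over the 9 libraries and were tested, and 13 did not. Summed over all 44, collagen transcripts amounted to 260.0 ± 19.6 FPKM in Control, 266.4 ± 23.9 in dbdb and 287.0 ± 17.9 in dbR (mean ± SD, n = 3), and the groups overlapped. Type IV chains held 68.8% of this sum in Control, 64.4% in dbdb and 60.6% in dbR. Fibrillar chains held 9.37%, 11.2% and 10.7%, and the other basement membrane zone collagens 10.7%, 12.4% and 11.6%. FACIT chains held 5.78%, 5.49% and 7.84%, and type VI chains 3.87%, 4.22% and 7.21%.

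Among the class sums, the ratio of dbR to Control was highest for type VI, at 2.06, and its ratio of dbR to dbdb was 1.84. The type VI sum came to 11.1, 9.85 and 9.27 FPKM in the Control libraries, 9.75, 10.6 and 13.4 in dbdb and 21.0, 23.7 and 17.4 in dbR. All 3 dbR libraries lay above all 6 others, and Control and dbdb overlapped. The FACIT sum came to 18.3, 13.4 and 13.6 FPKM in Control, 13.7, 12.4 and 17.6 in dbdb and 20.4, 26.5 and 20.6 in dbR, again with every dbR library above the 6 others. The type IV sum overlapped between all groups, at 178.7 ± 9.88, 171.2 ± 13.7 and 173.9 ± 11.9 FPKM (SD, n = 3). The fibrillar sum averaged 24.5 ± 4.80 FPKM in Control, 30.2 ± 8.20 in dbdb and 30.8 ± 2.18 in dbR, and it overlapped as well. Its ratio of dbdb to Control was 1.23 with all libraries and 1.39 without Control replicate 1. The short-chain and transmembrane sums were higher in dbdb than in Control without overlap, with ratios of 1.71 and 1.56, at group means of at most 3.79 and 1.61 FPKM. These sums were not tested.

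Some of the class sums rest on 1 gene. In an alternative chosen after seeing the data, the fibrillar, type IV, basement membrane zone, type VI and FACIT sums were taken without their most abundant gene. Without Col27a1 the fibrillar ratio of dbdb to Control turned from 1.23 to 0.675, or 0.817 without Control replicate 1 as well, and these groups overlapped. That of dbR to dbdb went from 1.02 to 1.58. Without Col14a1 the FACIT sum overlapped between all groups, with ratios to dbdb and Control of 1.01 and 0.848 for dbR. Without Col18a1 the basement membrane zone ratios to Control turned from 1.19 to 0.554 in dbdb and from 1.20 to 0.668 in dbR. The type VI sum without Col6a1 kept ratios of 1.82 for dbR to dbdb and 1.89 for dbR to Control. The short-chain and transmembrane sums were not recomputed in this way. Of their tested members, Col8a1, Col10a1 and Col13a1 were higher in dbdb than in Control without overlap, and Col23a1 overlapped.

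**Figure D1:**
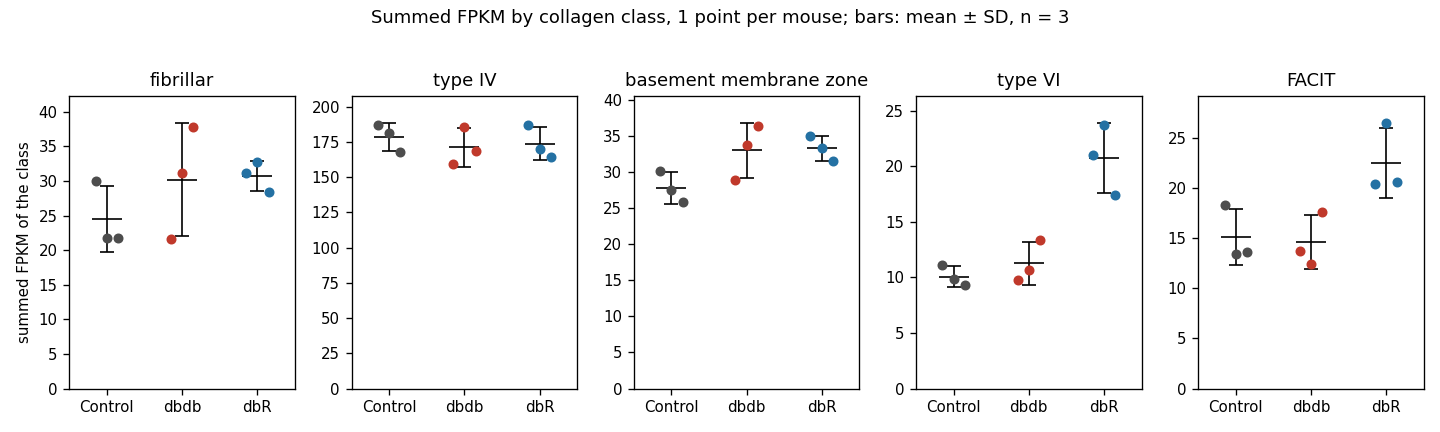
Summed FPKM of 5 collagen classes in each library (vertical axis, linear from 0) by group (horizontal axis). Each point is 1 mouse and the bars give the mean ± SD (n = 3); the dbR points of type VI lie between 17.4 and 23.7 FPKM, above all others.

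Differences were tested with limma on log2(FPKM + 0.1) over 14537 genes, in 1 model of the 3 groups, two-sided. A gene was called higher or lower at a Benjamini-Hochberg adjusted p under 0.05 over all genes. Because of the added 0.1, a log2 fold change is too small for genes with low FPKM. The 3 comparisons share libraries: both comparisons with Control use the same Controls, and dbdb is part of both dbdb vs Control and dbR vs dbdb.

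The comparison of dbdb with Control asks what differs in the diabetic renal cortex. It called 10 of the 31 collagen genes (32.3%), where 26.4% of all genes were called, a share near the background. Of these, 5 were higher and 5 lower, beside 13.1% and 13.4% of all genes. That balance depends on the scaling, with 8 higher and 4 lower when mitochondrial genes were left out and 5 higher and 7 lower with quantile normalization. The median log2 fold change of the collagens was 0.05, beside -0.003 for all genes. Among the lower calls, Col19a1 and Col6a6 passed the filter through their Control level alone.

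The comparison of dbR with dbdb asks what rosiglitazone changed in diabetic mice. It called 2 of the 31 collagen genes, both higher, where 0.743% of all genes were called, 0.564% higher and 0.179% lower. limma called 0 collagens lower, and at an unadjusted p under 0.05 it had 10 higher, beside 9.43% of all genes, and 2 lower, beside 8.05%. The dbR and dbdb libraries did not overlap for 10 collagens higher in dbR and 1 lower, beside 10.7% and 11.9% of all genes. The median log2 fold change was 0.10, beside -0.002 for all genes. The count of 2 depended on single libraries. It was 0 without dbdb replicate 1, dbdb replicate 2 or any dbR replicate, 1 without Control replicate 2 or 3, and 4 without dbdb replicate 3. In the 5 settings with a count of 0, between 9 and 11 collagens had an unadjusted p under 0.05, beside 1730 to 2642 of all 14537 genes. The count over all genes, 108, fell to 36 and 31 without dbdb replicates 1 and 2, and to 70, 2 and 10 without dbR replicates 1, 2 and 3. It was 72 and 91 without Control replicates 2 and 3, and 141 without dbdb replicate 3.

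In dbR vs Control, 14 of the 31 collagens were called, beside 24.1% of all genes. Of these, 10 were higher and 4 lower, beside 12.3% and 11.8%. The median log2 fold change was 0.21, beside -0.001 for all genes. The lower calls again included Col19a1 and Col6a6, which passed the filter through Control alone. Without Control replicate 3 or without dbR replicate 1 the count was 9, where the count over all genes went from 3497 to 2479 and 2554.

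**Figure D2:**
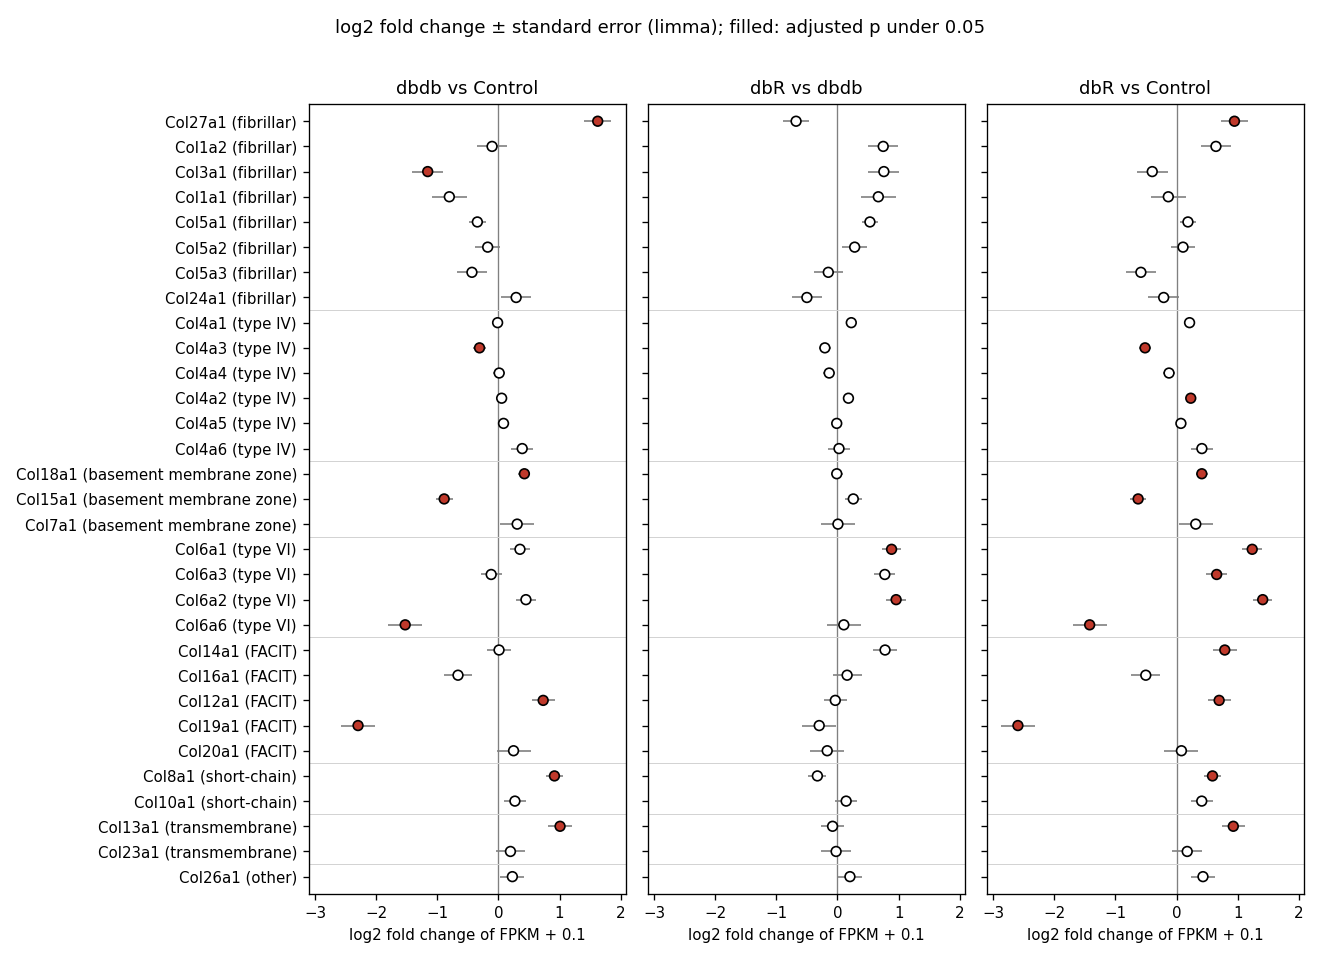
Log2 fold change of FPKM + 0.1 (horizontal axis) of the 31 tested collagen genes (vertical axis, ordered by class and level) in each comparison; bars are the standard error from limma and filled points have an adjusted p under 0.05. In the middle panel only Col6a1 and Col6a2 are filled, and in several other settings neither is.

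Mitochondrial transcripts held 26.9% to 32.8% of the FPKM of a library. Leaving them out and rescaling each library moved the median of all genes to 0.15 log2 in dbdb vs Control, 0.09 in dbR vs Control and -0.06 in dbR vs dbdb. With that scaling, 78.3%, 70.5% and 48.6% of the calls were higher, against 49.5%, 51.1% and 75.9% without it. Scaling to the 75th percentile gave 52.7%, 61.9% and 83.9%. Relative to the shifted median, the log2 fold changes in dbdb vs Control were 1.63 for Col27a1, -1.15 for Col3a1, -0.30 for Col4a3, -0.88 for Col15a1, 0.43 for Col18a1, 0.00 for Col4a1 and -0.10 for Col1a2. The values of dbR vs dbdb were 0.88 for Col6a1 and 0.96 for Col6a2.

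Col27a1 (ENSMUSG00000045672, chr4:63214004-63334991, plus strand of GRCm38) encodes a fibrillar chain best known from cartilage. It had the highest mean of the fibrillar genes over the 9 libraries. In Control replicate 1 it was below Col3a1 and Col1a2, in Control replicate 2 below Col3a1, and in Control replicate 3 above both. In dbR replicate 2 it was below Col1a2, at 9.15 against 11.1 FPKM. Col27a1 was at 4.37, 5.46 and 6.46 FPKM in the Control libraries, 11.5, 19.3 and 21.2 in dbdb and 11.8, 9.15 and 10.6 in dbR. Every dbdb and dbR library lay above every Control, and dbdb and dbR overlapped through dbdb replicate 1. Its log2 fold change was 1.62 ± 0.219 (SE) for dbdb vs Control (adjusted p = 0.000657) and 0.95 ± 0.219 for dbR vs Control (adjusted p = 0.0118), and both were called in all 20 alternative settings. Between dbR and dbdb it was -0.68 and was not called (adjusted p = 0.161). The cartilage markers Acan, Comp and Matn1 together did not exceed 0.0937 FPKM in any library.

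Col3a1 (ENSMUSG00000026043, chr1:45311538-45349706, plus strand) encodes the chain of type III collagen, which lies in fibrils with type I. It was listed at 9.88, 5.92 and 5.51 FPKM in Control, 2.42, 2.62 and 4.35 in dbdb and 5.12, 6.07 and 4.49 in dbR. The 3 dbdb libraries were below all others, Control replicate 1 was far above the rest, and dbR overlapped the other Controls. Col3a1 was lower in dbdb than in Control by a log2 fold change of -1.16 ± 0.255 (adjusted p = 0.00868), or -0.90 without Control replicate 1 (adjusted p = 0.0245; range over 20 alternatives 0.00293 to 0.0347). It was not called in dbR vs dbdb (0.76, adjusted p = 0.170) or in dbR vs Control (-0.40, adjusted p = 0.293), where it had -0.14 without Control replicate 1 (adjusted p = 0.722). In bulk tissue, fewer cells of a type and less RNA per cell cannot be told apart.

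Type I collagen, the main fibrillar collagen of the interstitium, is built from the products of Col1a1 and Col1a2. Col1a1 was at 4.02, 2.33 and 1.87 FPKM in Control, 0.988, 1.83 and 1.66 in dbdb and 2.27, 2.72 and 2.13 in dbR. The dbdb libraries lay just below the other groups, and dbR lay within the Control range. Col1a2 was at 8.64, 5.15 and 4.78 FPKM in Control, 4.49, 4.99 and 7.62 in dbdb and 8.77, 11.1 and 8.56 in dbR. Its Control and dbdb libraries overlapped, and the dbR libraries lay above all dbdb libraries and, apart from Control replicate 1, above the Controls.

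Neither type I gene was called in any comparison. In dbdb vs Control the log2 fold change of Col1a1 was -0.80 ± 0.281 (adjusted p = 0.0602). It was called without Control replicate 3 (-1.03, adjusted p = 0.0340) and with quantile normalization (-0.88, adjusted p = 0.0331), and was smaller without Control replicate 1 (-0.50), in a range of adjusted p from 0.0331 to 0.176. That of Col1a2 was -0.10 ± 0.242 (adjusted p = 0.787) and changed sign without Control replicate 1 (0.16). For dbR vs dbdb they were 0.67 (adjusted p = 0.258) and 0.75 (adjusted p = 0.161). In dbR vs Control, Col1a1 had -0.13 (adjusted p = 0.772), or 0.17 without Control replicate 1, and Col1a2 had 0.65 (adjusted p = 0.0794). Col1a2 was called in that comparison without Control replicate 1 (0.91, adjusted p = 0.0161) and without dbdb replicate 3 (0.65, adjusted p = 0.0456), in a range of 0.0161 to 0.233. The ratio of Col1a1 to Col1a2 stood at 0.465, 0.452 and 0.391 in Control, 0.220, 0.367 and 0.218 in dbdb and 0.259, 0.246 and 0.249 in dbR. Every Control ratio exceeded every ratio of the diabetic groups. This and the other chain ratios were chosen after the values were seen and were not tested.

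The other tested fibrillar genes were Col5a1, Col5a2, Col5a3 and Col24a1, and none of them was called by limma in any comparison. At an unadjusted p under 0.05, 4 of the 8 tested fibrillar genes passed in dbdb vs Control, 5 in dbR vs dbdb and 3 in dbR vs Control, beside 5636, 2541 and 5355 of all 14537 genes. Col5a1, whose product takes part in starting type I fibrils, had group means of 1.87 ± 0.0907, 1.46 ± 0.157 and 2.16 ± 0.328 FPKM (SD, n = 3) in Control, dbdb and dbR. The median log2 fold change of the 8 fibrillar genes was -0.26 in dbdb vs Control, 0.41 in dbR vs dbdb and -0.01 in dbR vs Control.

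Of the collagen genes, Col4a1, Col4a3, Col4a4 and Col4a2 had the highest means over the 9 libraries. Col4a1 (ENSMUSG00000031502) was at 44.1, 46.1 and 41.8 FPKM in Control, 39.6, 46.5 and 44.8 in dbdb and 53.0, 50.0 and 50.1 in dbR. Col4a2, whose product joins that of Col4a1 in the same molecule, was at 33.6, 34.4 and 30.6 FPKM in Control, 33.1, 35.2 and 33.8 in dbdb and 42.3, 37.4 and 36.3 in dbR. For both genes Control and dbdb overlapped and every dbR library was above the 6 others. Neither was called in dbdb vs Control, at -0.01 ± 0.0701 for Col4a1 (adjusted p = 0.914) and 0.05 ± 0.0717 for Col4a2 (adjusted p = 0.622). Nor was either called in dbR vs dbdb, at 0.23 (adjusted p = 0.147) and 0.18 (adjusted p = 0.234). In dbR vs Control, Col4a2 was called (0.23 ± 0.0717, adjusted p = 0.0399) and Col4a1 was not (0.21 ± 0.0701, adjusted p = 0.0509). The call of Col4a2 held in 12 of 20 alternatives (adjusted p 0.0269 to 0.131). It was lost without Control replicate 1 (0.0685), 2 (0.0505) or 3 (0.131), dbdb replicate 2 (0.0523), and dbR replicate 1 (0.123) or 2 (0.0651), and with the 6 libraries only (0.0637) or no variance trend (0.0730). Col4a1 was called in 6 of 20, among them the setting without dbdb replicate 1 (0.0273), in a range of 0.0269 to 0.152. The ratio of Col4a1 to Col4a2 averaged 1.34 ± 0.0264 in Control, 1.28 ± 0.0741 in dbdb and 1.32 ± 0.0642 in dbR (SD, n = 3), with overlap.

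Col4a3 (ENSMUSG00000079465, chr1:82586921-82722059, plus strand) was at 54.0, 50.6 and 46.6 FPKM in Control, 37.7, 45.7 and 38.8 in dbdb and 39.8, 34.3 and 32.0 in dbR. Every diabetic library was below every Control, though dbdb replicate 2 came close to Control replicate 3. Col4a4 (ENSMUSG00000067158, chr1:82448423-82586849, minus strand) was at 43.5, 39.0 and 36.2 FPKM in Control, 35.9, 44.8 and 39.2 in dbdb and 39.2, 35.9 and 33.8 in dbR, with overlap of all groups. Col4a5, whose product completes the glomerular network, was at 11.3, 11.1 and 12.2 FPKM in Control, 12.2, 13.2 and 11.3 in dbdb and 12.4, 12.4 and 11.5 in dbR. The 9 libraries of Col4a5 were interleaved.

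Of these 3 genes, limma called Col4a3 alone. Its log2 fold change in dbR vs Control was -0.51 ± 0.0992 (adjusted p = 0.00486), called in all 20 alternatives. The value of dbdb vs Control was -0.31 ± 0.0992 (adjusted p = 0.0441), called in 9 of 20 alternatives (adjusted p 0.0240 to 0.369). That call was lost without Control replicate 1 (-0.26, 0.131), Control replicate 2 (0.0979), dbdb replicate 1 (0.126), dbdb replicate 3 (0.114) or dbR replicate 2 (0.0598), with no filter (0.0614), with no variance trend (0.0782) and with the most abundant transcript (0.0528). Nor was it called with 75th percentile scaling (-0.29, 0.0677), quantile normalization (-0.23, 0.155) or mitochondrial genes left out (-0.15, 0.369), the last being -0.30 relative to the shifted median. The value of dbR vs dbdb was -0.21 (adjusted p = 0.319). Col4a4 had log2 fold changes of 0.01 (adjusted p = 0.938), -0.14 (adjusted p = 0.508) and -0.12 (adjusted p = 0.397) in dbdb vs Control, dbR vs dbdb and dbR vs Control. Col4a5 had 0.08 (adjusted p = 0.455), -0.01 (adjusted p = 0.958) and 0.07 (adjusted p = 0.537). With mitochondrial genes left out, Col4a5 was called in dbdb vs Control (0.24, adjusted p = 0.0478; range over 20 alternatives 0.0478 to 0.849), at 0.09 relative to the shifted median. These values do not show that Col4a4 and Col4a5 stayed the same.

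The ratio of Col4a3 to Col4a4, which no library scaling changes, stood at 1.24, 1.30 and 1.29 in Control, 1.05, 1.02 and 0.990 in dbdb and 1.01, 0.954 and 0.946 in dbR. Every Control library exceeded every diabetic library, and dbdb and dbR overlapped. The ratio of Col4a3 to Col4a1 stood at 1.22, 1.10 and 1.12 in Control, 0.952, 0.981 and 0.866 in dbdb and 0.75, 0.686 and 0.639 in dbR, with no overlap between any groups. The ratio of Col4a4 to Col4a5 was 3.45 ± 0.450, 3.27 ± 0.289 and 3.00 ± 0.134 (SD, n = 3), with overlap. Col4a6, whose product is found in Bowman's capsule, was the lowest type IV gene at 0.311 ± 0.0410, 0.437 ± 0.0441 and 0.448 ± 0.0591 FPKM, and was not called in any comparison.

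The type IV genes lie in head-to-head pairs. Col4a3 and Col4a4 start 71 bases apart on opposite strands of chromosome 1, Col4a5 and Col4a6 start 1308 bases apart on X, and Col4a1 and Col4a2 overlap at their starts on chromosome 8. The stretch between Col4a4 and Col4a3 is printed because the gene pair shares it and yet the ratio of the pair differed between the groups. The sequence is from RefSeq (GRCm38.p6), chr1:82586850-82586920, minus strand, read toward Col4a4, and 69.0% of its bases are G or C.
Col4a4 and Col4a3: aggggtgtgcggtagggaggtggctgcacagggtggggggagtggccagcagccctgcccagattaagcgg
Searched on both strands, it holds no match to TATAAA, known as a core element of many promoters, to CCAAT, to the GC-rich box GGGCGG, to AGGTCA, the core of many nuclear receptor sites, or to AGGTCANAGGTCA, a repeat that includes that core. Of 32851 promoter windows in the table, 4.41%, 13.3%, 20.7%, 4.13% and 0.00913% hold these letters in their 71 bases before the start. The absence says only that these letters are not in this stretch.

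In the basement membrane zone, Col18a1 (ENSMUSG00000001435, chr10:77052178-77166548, minus strand) encodes the collagen from which endostatin is released. It was at 24.7, 22.1 and 19.9 FPKM in Control, 26.0, 30.8 and 33.0 in dbdb and 30.9, 29.3 and 28.5 in dbR. All diabetic libraries were above all Controls, with dbdb replicate 1 nearest to them. Its log2 fold change was 0.43 ± 0.0992 in dbdb vs Control (adjusted p = 0.0114), called in all 20 alternatives. The value of dbR vs Control was 0.41 ± 0.0992 (adjusted p = 0.0139), called in 19 of 20 (adjusted p 0.00655 to 0.0508) and lost without dbR replicate 1 (0.0508). Between dbR and dbdb it was -0.01 (adjusted p = 0.972).

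Col15a1 (ENSMUSG00000028339, chr4:47208161-47313167, plus strand) encodes a related collagen that links basement membranes to the fibrils beneath. It was at 5.28, 5.29 and 5.77 FPKM in Control, 2.68, 2.83 and 3.20 in dbdb and 3.88, 3.94 and 2.77 in dbR. The Controls were close together and above all diabetic libraries, and dbR overlapped dbdb through dbR replicate 3. Col15a1 was lower in dbdb (-0.89 ± 0.136, adjusted p = 0.00134) and in dbR (-0.63 ± 0.136, adjusted p = 0.00864) than in Control, called in all 20 alternatives each. The comparison of dbR with dbdb gave 0.26 (adjusted p = 0.361). Col7a1, which encodes the anchoring fibril of epithelia, did not exceed 0.290 FPKM in any library and was not called.

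Type VI collagen forms beaded filaments beside basement membranes, from the products of Col6a1, Col6a2 and most often Col6a3. Col6a1 (ENSMUSG00000001119, chr10:76708792-76726168, minus strand) was at 4.13, 3.02 and 2.99 FPKM in Control, 3.96, 3.93 and 5.08 in dbdb and 8.09, 9.32 and 6.84 in dbR. Col6a2 (ENSMUSG00000020241, chr10:76595762-76623630, minus strand) was at 2.60, 1.86 and 2.03 FPKM in Control, 2.77, 2.74 and 3.43 in dbdb and 5.91, 6.93 and 4.92 in dbR. Col6a3 was at 3.86, 4.65 and 3.87 FPKM in Control, 2.91, 3.87 and 4.79 in dbdb and 6.86, 7.32 and 5.56 in dbR. For each of the 3 genes, all dbR libraries lay above the 6 others.

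Against dbdb, Col6a2 in dbR had a log2 fold change of 0.96 ± 0.160 (adjusted p = 0.0331) and Col6a1 one of 0.89 ± 0.160 (adjusted p = 0.0433), and both were called. Col6a3 had 0.77 ± 0.173 and was not called (adjusted p = 0.0692), except without dbdb replicate 3 (0.94, 0.0381; range 0.0381 to 0.242). The call of Col6a2 held in 10 of 20 alternatives (adjusted p 0.0245 to 0.158). It was lost without dbdb replicate 1 (0.0681), dbdb replicate 2 (0.102), dbR replicate 1 (0.0713), dbR replicate 2 (0.158) or dbR replicate 3 (0.0604), and with no filter (0.0666), the 6 libraries only (0.0592), no variance trend (0.0737), the most abundant transcript (0.0657) or the replicate block (0.0762). That of Col6a1 held in 7 of 20 (0.0300 to 0.186), and was lost without Control replicate 2 (0.0580) or 3 (0.0530), dbdb replicate 1 (0.0864) or 2 (0.124), and dbR replicate 1 (0.0777), 2 (0.186) or 3 (0.0647). It was also lost with no filter (0.0789), the 6 libraries only (0.0616), no trend (0.0841), the most abundant transcript (0.0605), the block (0.0869) or mitochondrial genes left out (0.0581). The log2 fold change itself stayed between 0.79 and 1.08 for Col6a2 and between 0.77 and 1.0 for Col6a1 in those alternatives. In dbR vs Control the calls of Col6a2 (1.41 ± 0.160, adjusted p = 0.000285) and Col6a1 (1.24 ± 0.160, adjusted p = 0.000577) held in all 20. Col6a3 was called there as well (0.66 ± 0.173, adjusted p = 0.0211; range 0.00567 to 0.0749), but not without Control replicate 1 (0.61, 0.0624), Control replicate 3 (0.0657), dbR replicate 1 (0.0679) or dbR replicate 2 (0.0749). None of the 3 was called in dbdb vs Control, at 0.35 for Col6a1 (adjusted p = 0.133), 0.45 for Col6a2 (adjusted p = 0.0632) and -0.12 for Col6a3 (adjusted p = 0.652). Without Control replicate 1, Col6a1 (0.50, 0.0460; range 0.0460 to 0.346) and Col6a2 (0.58, 0.0311; range 0.0240 to 0.183) were called there, as they were with mitochondrial genes left out (0.51, 0.0495 and 0.60, 0.0240). Whether the difference in dbR vs Control exceeds that in dbdb vs Control is what dbR vs dbdb tests.

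Col6a6, which encodes an alternative partner to the Col6a3 chain, was at 0.383, 0.269 and 0.265 FPKM in Control, 0.0387, 0.0629 and 0.0205 in dbdb and 0.0498, 0.0847 and 0.0222 in dbR. All diabetic libraries lay far below the Controls, on an estimated 4.8 to 91.2 fragments per library. Col6a6 passed the 0.1 FPKM filter through Control alone, so it was admitted by the group it is compared with. It had group means of 0.305, 0.0407 and 0.0523 FPKM in Control, dbdb and dbR. Its log2 fold change was -1.52 ± 0.276 between dbdb and Control (adjusted p = 0.00332) and -1.42 ± 0.276 between dbR and Control (adjusted p = 0.00504), called in all 19 alternatives that kept the gene. Their size depends on the added value, from -2.71 to -0.33 and from -2.45 to -0.31 over the alternatives. Col6a6 had 0.10 in dbR vs dbdb (adjusted p = 0.883). The ratio of Col6a1 to Col6a2 stood at 1.59, 1.62 and 1.47 in Control, 1.43, 1.44 and 1.48 in dbdb and 1.37, 1.34 and 1.39 in dbR. Those of dbR were the lowest, without overlap, and Control and dbdb overlapped.

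Col6a2 and Col6a1 are neighbors on the minus strand of chromosome 10, 85161 bases apart. Their promoters are printed because both genes were called in dbR vs dbdb. The sequences are from RefSeq (GRCm38.p6), minus strand: chr10:76726169-76726294 for Col6a1, 250 to 125 bases before its RefSeq start, since the annotated gene covers the rest, and chr10:76623631-76623880 for Col6a2, all 250 bases before its start. Capitals mark CCGCCC, the GC box GGGCGG read on the other strand.
Col6a1: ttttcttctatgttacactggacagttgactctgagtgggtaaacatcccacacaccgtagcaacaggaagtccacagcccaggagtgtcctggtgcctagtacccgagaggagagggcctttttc
Col6a2: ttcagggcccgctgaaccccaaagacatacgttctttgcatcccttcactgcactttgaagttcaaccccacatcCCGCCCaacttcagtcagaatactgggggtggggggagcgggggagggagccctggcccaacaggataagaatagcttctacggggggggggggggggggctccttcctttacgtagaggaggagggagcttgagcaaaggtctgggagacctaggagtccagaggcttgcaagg
G and C make up 51.6% of the Col6a1 stretch and 59.2% of that of Col6a2. The same 5 motifs were searched on both strands. The GC box of Col6a2 was the 1 match, and the Col6a1 stretch held none. In the same 126 bases of all 32851 promoters, 6.26% hold TATAAA, 16.9% hold CCAAT, 13.5% hold GGGCGG, 7.29% hold AGGTCA and 0.00304% hold its repeat. In 250 bases these shares are 12.4%, 33.8%, 32.7%, 14.0% and 0.0335%. The table had entries for 35 of the 44 collagen genes.

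FACIT collagens sit on the surface of fibrils. Col14a1 (ENSMUSG00000022371, chr15:55307750-55520803), the most abundant of them, was at 13.5, 10.1 and 9.25 FPKM in Control, 9.81, 9.15 and 14.4 in dbdb and 16.4, 22.9 and 17.6 in dbR. All dbR libraries were above the 6 others, and Control and dbdb overlapped. Its log2 fold change was 0.79 ± 0.195 in dbR vs Control (adjusted p = 0.0159; range 0.00600 to 0.126), lost without Control replicate 2 (0.0513), Control replicate 3 (0.0577) or dbR replicate 2 (0.0604), and with the most abundant transcript (0.62, 0.126). Col14a1 had 0.78 ± 0.195 in dbR vs dbdb and was not called (adjusted p = 0.0871) except without dbdb replicate 3 (0.98, 0.0396; range 0.0396 to 0.290), and in dbdb vs Control it had 0.01 (adjusted p = 0.975).

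Col12a1, whose product binds type I fibrils, was at 1.25, 1.11 and 0.766 FPKM in Control, 2.08, 1.64 and 1.60 in dbdb and 1.78, 1.94 and 1.47 in dbR. Both diabetic groups lay above the Controls and overlapped each other. Col12a1 was called in dbdb vs Control (0.73 ± 0.187, adjusted p = 0.0176; range 0.00918 to 0.0594) but not without Control replicate 3 (0.0529) or dbdb replicate 1 (0.0594). It was called in dbR vs Control (0.70 ± 0.187, adjusted p = 0.0232; range 0.00752 to 0.0798) but not without Control replicate 3 (0.0705), dbR replicate 1 (0.0687) or dbR replicate 2 (0.0798). With 1 in place of 0.1 added, the log2 fold changes were 0.45 and 0.42.

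Col19a1 (ENSMUSG00000026141, chr1:24261890-24587472, minus strand), whose product lies in basement membrane zones, was at 0.831, 0.506 and 0.562 FPKM in Control, 0.0238, 0.0623 and 0.0567 in dbdb and 0, 0.0426 and 0.0188 in dbR. It was present in every Control and near or at 0 in every diabetic library. Col19a1 passed the 0.1 FPKM filter through the Control libraries alone. Its group means were 0.633, 0.0476 and 0.0204 FPKM in Control, dbdb and dbR. The calls are thus of a gene admitted by the group it is compared with. The log2 fold changes were -2.30 ± 0.274 between dbdb and Control (adjusted p = 0.000320) and -2.59 ± 0.274 between dbR and Control (adjusted p = 0.000200), called in all 19 alternatives that kept the gene. Their size depends on the added 0.1, since in dbdb vs Control they ran from -3.52 to -0.64 over the alternatives. Col19a1 had -0.30 in dbR vs dbdb (adjusted p = 0.613). Col16a1 and Col20a1, the other tested FACIT genes, were not called.

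Col8a1 (ENSMUSG00000068196, chr16:57624258-57754737) encodes a short-chain collagen of the vessel wall. It was at 1.71, 1.47 and 1.31 FPKM in Control, 2.88, 3.27 and 2.59 in dbdb and 2.66, 2.28 and 1.98 in dbR. Both diabetic groups lay above the Controls. Its log2 fold change was 0.92 ± 0.146 in dbdb vs Control (adjusted p = 0.00166), called in all 20 alternatives, and 0.59 ± 0.146 in dbR vs Control (adjusted p = 0.0164; range 0.0121 to 0.0624), lost without Control replicate 3 (0.0595) or dbR replicate 1 (0.0624). Against dbdb, dbR had -0.33 (adjusted p = 0.283). Col10a1, known from the growth plate, had group means of 0.681 ± 0.0609, 0.841 ± 0.0672 and 0.955 ± 0.240 FPKM and was not called.

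Col13a1 encodes a collagen that spans the cell membrane. It was at 0.325, 0.349 and 0.458 FPKM in Control, 0.712, 0.892 and 0.975 in dbdb and 0.953, 0.673 and 0.802 in dbR, on an estimated 26.5 to 81.3 fragments. The Controls were below all other libraries. The log2 fold changes were 1.01 ± 0.190 in dbdb vs Control (adjusted p = 0.00411), called in all 19 alternatives that kept the gene, and 0.93 ± 0.190 in dbR vs Control (adjusted p = 0.00650), called in 18 of 19. They ran from 0.43 to 1.66 and from 0.39 to 1.33 over the alternatives. Col13a1 had -0.08 in dbR vs dbdb (adjusted p = 0.869). Col23a1 and Col26a1 were not called in any comparison.

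The 13 collagens below 0.1 FPKM on average were Col2a1, Col6a4, Col6a5, Col8a2, Col9a1, Col9a2, Col9a3, Col11a1, Col11a2, Col17a1, Col22a1, Col25a1 and Col28a1. Of these, Col11a2 was the highest at a mean of 0.0971 FPKM, and Col2a1 was listed at 0 in all 9 libraries. The lowest tested gene, Col24a1, had a mean of 0.120 FPKM. With an estimated 0 to 38.0 fragments per library, these 13 genes were left out of the test.

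**Figure D3:**
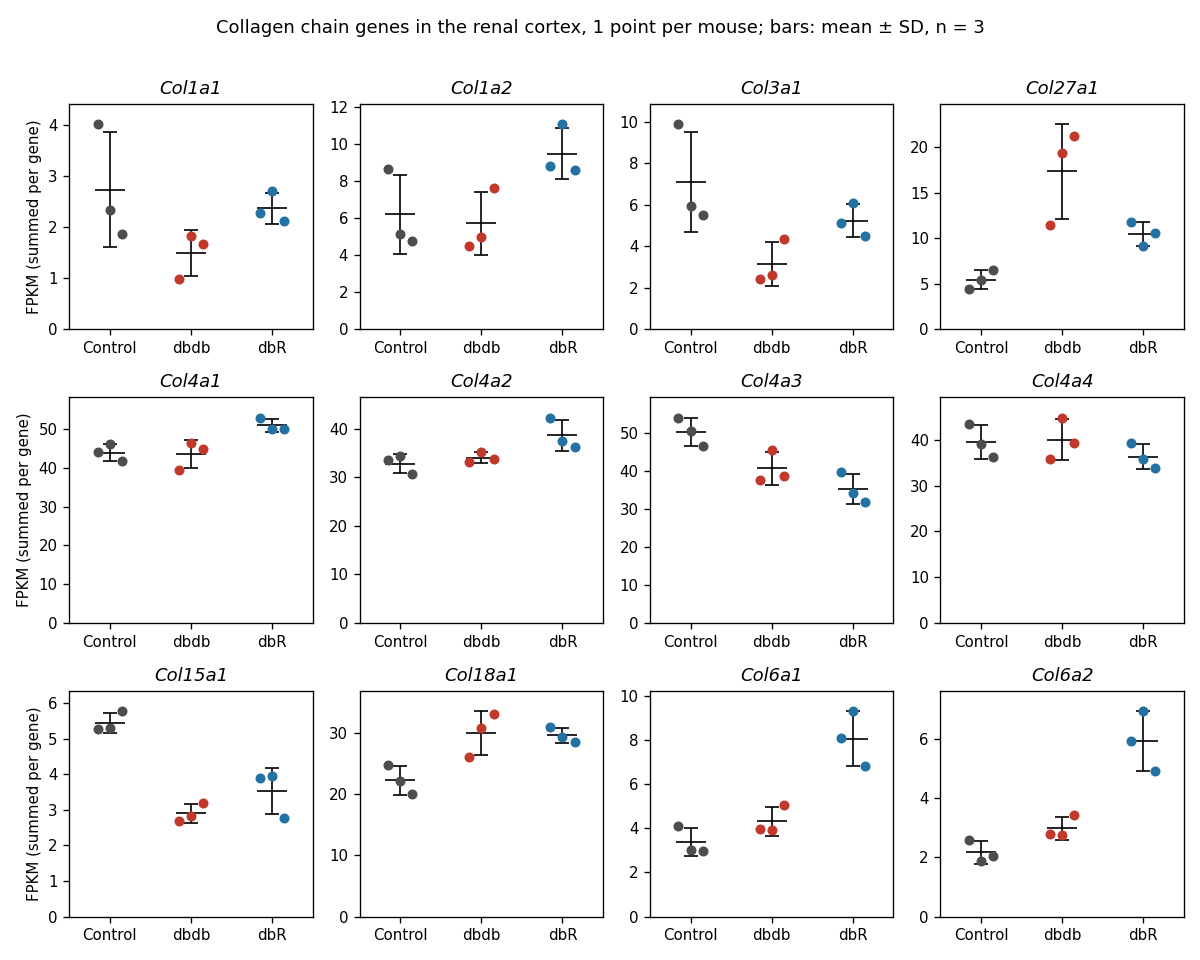
FPKM of 12 collagen genes in each library (vertical axis, linear from 0), with 1 point per mouse and bars for the mean ± SD (n = 3) of each group (horizontal axis). The top row holds fibrillar genes, the middle row type IV genes, and the bottom row Col15a1, Col18a1, Col6a1 and Col6a2; the dbR points of Col6a2, at 4.92 to 6.93 FPKM, lie above all others.

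Several of the genes have more than 1 annotated transcript. The share of Col18a1 in its main transcript was 80.6%, that of Col14a1 62.4%, that of Col4a5 68.0% and that of Col6a3 45.9%. With its main transcript alone, Col6a3 had 0.29 in dbdb vs Control, against -0.12 for the summed gene. Nearly all of Col4a3 was in 1 transcript, 99.9% of it in dbR. Of Col13a1, 69.3% was in 1 transcript, and with that transcript alone the call in dbR vs Control was lost (1.33, adjusted p = 0.0990; range 0.00582 to 0.0990).

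Of 1640 annotated lncRNA genes that could be placed on the genome, 5 lay within 10 kb of a collagen gene, and none of the 461 lncRNA transcripts assembled by the authors did. C430014B12Rik (chr1:82691928-82725169, minus strand) overlaps Col4a3 on the opposite strand. It was at 8.54, 8.10 and 6.17 FPKM in Control, 4.77, 6.22 and 7.08 in dbdb and 6.25, 5.43 and 3.66 in dbR, and the groups overlapped. The strand used in counting is not stated, so reads of the gene and of the antisense transcript cannot be told apart. The others were 9230112E08Rik at Col20a1, Gm20485 at Col26a1, RP23-56M2.7 at Col1a2 and Gm20427, 7856 bases from Col11a2.

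Collagen chains are hydroxylated, folded, exported, trimmed, cross-linked and finally degraded by other gene products, and 54 of 60 such genes found in the tables were tested. limma called 19 in dbdb vs Control (6 higher, 13 lower), 2 in dbR vs dbdb (both higher) and 26 in dbR vs Control (16 higher, 10 lower). Of all genes, 26.4% were called in dbdb vs Control (13.1% higher, 13.4% lower), 0.743% in dbR vs dbdb (0.564% higher) and 24.1% in dbR vs Control (12.3% higher, 11.8% lower), which is the background for the counts by role below. The median log2 fold changes of the 54 genes were 0.01, 0.12 and 0.00. Their calls were not followed through the alternative settings. In dbR vs dbdb, only 2 of all 14537 genes were called without dbR replicate 2 and 10 without dbR replicate 3.

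Among 14 tested genes for chain modification, 1 was higher and 4 lower in dbdb vs Control, 0 were called in dbR vs dbdb, and 1 was higher and 4 lower in dbR vs Control. In dbdb vs Control these included Crtap (-0.74) and P4ha1 (-0.72) of the prolyl hydroxylases and their partners, P3h2 (0.52), and the lysyl hydroxylase Plod2 (-0.50). Those of dbR vs Control included Plod2 (-0.73), Crtap (-0.67), P4ha1 (-0.54) and P3h2 (0.31).

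Among 10 genes for folding and export, 1 was higher and 4 lower in dbdb vs Control, with Creb3l1 (-0.89), the collagen chaperone Serpinh1 (-0.56), Fkbp14 (0.37) and the vesicle coat gene Sec23a (-0.29). Against Control, 2 were higher and 4 lower in dbR, with Fkbp10 (0.56), Fkbp14 (0.44), Mia3 (-0.39) and Sec23a (-0.34). None was called in dbR vs dbdb, where Creb3l1 had 0.88 (adjusted p = 0.0509).

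For propeptide removal, 2 of 7 genes were higher in dbdb vs Control, Adamts14 (0.85) and Pcolce (0.51), and 3 in dbR vs Control, Adamts14 (1.16), Pcolce (0.66) and Bmp1 (0.32). For cross-linking, 1 of 6 was higher and 1 lower in dbdb vs Control, Loxl1 (0.50) and Pxdn (-0.50), the latter a cross-linker of type IV collagen. Against Control, 4 of 6 were higher in dbR, Loxl4 (1.32), Loxl1 (1.18), Lox (0.80) and Loxl2 (0.60). Loxl4 was also higher in dbR vs dbdb (1.07, adjusted p = 0.0282).

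Of 8 tested receptors, 2 were lower in dbdb vs Control, the integrin genes Itga1 (-0.36) and Itgb1 (-0.27). Mrc2, an uptake receptor for collagen, was higher in dbR vs dbdb (0.66, adjusted p = 0.0498) and in dbR vs Control (0.84), where Ddr2 was higher too (0.68). Of 9 tested genes of collagen breakdown, 1 was higher and 2 lower in dbdb vs Control, the collagenase Mmp13 (-2.16) and the inhibitors Timp1 (0.97) and Timp3 (-0.66). For dbR vs Control 4 were higher and 2 lower, with Mmp13 (-1.78), Ctsk (1.35), Timp3 (-0.78) and Mmp2 (0.69). None was called in dbR vs dbdb.

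Marker genes of 17 cell types and tissues were summed in each library, and their part in the collagen results was not tested. Calls of marker genes were not followed through the alternative settings either. In dbR vs dbdb, the count over all genes fell to 2 without dbR replicate 2. Those of fibroblasts and pericytes (5 of 6 genes at a mean of 0.1 FPKM or more, Dcn the most abundant) came to 27.7, 19.7 and 22.1 FPKM in Control, 21.6, 23.2 and 27.8 in dbdb and 30.9, 38.7 and 31.6 in dbR. The mesangial markers (3 of 3, Pdgfrb) came to 12.1, 12.1 and 11.1 FPKM in Control, 11.9, 11.8 and 15.5 in dbdb and 16.8, 18.8 and 15.8 in dbR. In both sums the dbR libraries were above all others, and Pdgfrb belongs to both lists, but the members differed. In dbR vs dbdb, Pdgfrb was called higher (0.69, adjusted p = 0.0234), and Pdgfra was not called (0.75, adjusted p = 0.0607). For both genes every dbR library lay above the 6 others, as for the tested collagens Col6a1, Col6a2, Col6a3, Col4a1, Col4a2 and Col14a1. Of all 14537 genes, 1559 were higher without overlap in dbR vs dbdb and 3026 in dbR vs Control. How many genes met both conditions was not counted. Dcn (0.55), Itga8 (0.48), Lum (0.09), Gata3 (0.01) and Cspg4 (-0.18) were not called in dbR vs dbdb, and their dbR and dbdb libraries overlapped. Gata3 and Cspg4 were called higher in dbdb vs Control (0.78 and 0.65) and in dbR vs Control (0.79 and 0.47), and Gli1 was below the filter. Vascular smooth muscle markers (4 of 4, Acta2) came to 33.2, 15.0 and 14.4 FPKM in Control, 14.1, 13.2 and 20.7 in dbdb and 12.9, 18.9 and 15.1 in dbR. There the groups overlapped and Control replicate 1 was the highest library.

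Endothelial markers (6 of 6, Plvap) came to 138.1, 152.3 and 137.2 FPKM in Control, 126.8, 124.8 and 114.4 in dbdb and 151.3, 169.1 and 155.0 in dbR. The dbdb sums were the lowest, and Control and dbR overlapped. Emcn (-0.61), Pecam1 (-0.52), Kdr (-0.34) and Cdh5 (-0.32) were called lower in dbdb vs Control, while Plvap (0.17, adjusted p = 0.169) and Ehd3 (0.13, adjusted p = 0.199) had the other sign and were not called. In dbR vs dbdb, Emcn (0.66, adjusted p = 0.0205) and Kdr (0.52, adjusted p = 0.0309) were called higher. Leukocyte markers (5 of 5, Ptprc) came to 9.54, 8.37 and 7.13 FPKM in Control, 2.94, 3.53 and 3.85 in dbdb and 4.74, 5.32 and 4.87 in dbR. These groups did not overlap, with Control the highest and dbdb the lowest. None of the 5 members was called in dbR vs dbdb, beside 0.743% of all genes, and only Cd68 was without overlap there.

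Tubule markers accounted for most of the marker signal. Those of the proximal tubule (5 of 5, Slc34a1) came to 2406 ± 171, 2673 ± 306 and 2644 ± 63.3 FPKM (SD, n = 3) in Control, dbdb and dbR. Those of the thick ascending limb (2 of 2, Umod) came to 366 ± 51.0, 375 ± 112 and 401 ± 33.0. The distal tubule (3 of 3, Slc12a3) gave 208 ± 12.8, 485 ± 54.9 and 454 ± 35.4, and the collecting duct (4 of 4, Aqp2) 73.2 ± 8.12, 163 ± 36.4 and 145 ± 3.24. In the last pair of lists every diabetic library was above every Control, as for Col4a6, Col6a2, Col8a1, Col12a1, Col13a1, Col18a1 and Col27a1. Such a pattern was common: among all 14537 genes, the dbdb libraries lay above the Controls without overlap for 3078, and the dbR libraries for 3026. The number of genes with both was not counted. Against Control, limma called Col4a6 in neither diabetic group and did not call Col6a2 in dbdb. A tubular source of these collagens was not tested. Atp6v1g3 of the collecting duct list was called higher in dbR vs dbdb (0.52, adjusted p = 0.0251). The other members, Aqp2 (-0.40), Slc4a1 (-0.10) and Hsd11b2 (0.01), were not called there.

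Markers of other tissues were low. Liver markers (3 of 3, Alb) came to 5.59 ± 0.355, 10.6 ± 2.63 and 16.3 ± 1.61 FPKM, without overlap of the groups. Alb alone averaged 4.96, 9.43 and 15.3 FPKM, also without overlap. Apoa1 averaged 0.454, 0.545 and 0.328 FPKM and overlapped in every comparison, and Ttr overlapped except in dbR vs Control. Erythroid markers (2 of 3, Hba-a1) ranged from 1.60 to 25.9 FPKM, adipocyte markers (3 of 5, Cfd, with Lep near 0) from 0 to 2.64, and urothelial markers (3 of 5, Upk1a) from 0.158 to 3.36. Adipocyte markers were higher in every Control than in every dbdb library. Of 4 adrenal cortex markers only Star was above 0.1 FPKM, and Cyp11a1, Cyp11b1 and Cyp21a1 were near 0. All 3 skeletal muscle markers (Ckm, Acta1 and Myh4) and all 3 cartilage markers were near 0, summing to at most 0.0587 and 0.0937 FPKM.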

How the data were processed

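Renal cortex RNA of 9 mice (3 Control, 3 dbdb, 3 dbR) had been sequenced, 1 library per mouse. The authors aligned strand-specific paired reads to GRCm38.p2 with TopHat2 (version 2.0.9), assembled transcripts with Scripture and Cufflinks (2.1.1), and deposited FPKM per transcript for mRNAs, annotated lncRNAs and assembled lncRNAs. FPKM values were added per gene. Depth was estimated from the steps between low FPKM values of genes with 1 transcript, and limits the genes under about 1 FPKM. Genes with a mean of at least 0.1 FPKM were fitted with limma (3.58.1, R 4.3.3: lmFit, contrasts.fit, eBayes with a variance trend) on log2(FPKM + 0.1), as 1 model of 3 groups with 3 contrasts, two-sided, with Benjamini-Hochberg adjustment over all genes. The fit was tested on simulated data. Tables were handled in python 3.11.15 with numpy 2.4.6, pandas 2.3.3, scipy 1.17.1 and matplotlib 3.10.9. Gene positions came from GENCODE vM21 (GRCm38) and promoter sequences from RefSeq (GRCm38.p6).

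The alternatives tried were adding 1 or 0.01 before the logarithm, testing genes at any level or only those with a mean of at least 1 FPKM, 75th percentile scaling, quantile normalization, mitochondrial genes left out and the rest scaled, the 6 libraries of a comparison only, no variance trend, the most abundant transcript of each gene, the replicate number as a block, and leaving out each library. Sums of the fibrillar, type IV, basement membrane zone, type VI and FACIT classes without their most abundant gene were added after seeing the data. For the fibrillar class this was also done without Control replicate 1.

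Collagens named were the most abundant of each class, those called, and Col1a1, Col1a2, Col3a1 and Col4a1 to Col4a5 throughout. Of the pathway genes called, up to 4 per role and comparison with the largest absolute log2 fold change were named. Marker lists covered fibroblast and pericyte, vascular smooth muscle, mesangial, podocyte, endothelial, proximal tubule, thick ascending limb, distal tubule, collecting duct, leukocyte, adipocyte, urothelium, cartilage, skeletal muscle, erythroid, liver and adrenal cortex. The members and lists were chosen with earlier results of these data known. Of the 66 pathway symbols, 6 older synonyms were not in the tables. The result of the podocyte list is not reported here.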

Additional observations from a re-analysis of the deposited data

How the results depend on the processing

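Of the collagen genes called, 8 of 10 in dbdb vs Control, 0 of 2 in dbR vs dbdb and 7 of 14 in dbR vs Control were called by limma under every alternative that gave them a value, and all kept their sign. In both comparisons with Control these included Col19a1 and Col6a6, which passed the filter through Control alone. In dbR vs dbdb, collagens called numbered 2 as reported, 1 with mitochondrial genes left out, and 0 with no filter, with the 6 libraries alone, with no variance trend, with the most abundant transcript or with the replicate block, where 11 or 12 had an unadjusted p under 0.05, beside 2757 of 17614 genes with no filter, 2455, 2464 and 2349 of 14537 with the 6 libraries, no trend and the block, and 2306 of 14303 with the most abundant transcript. All genes called in that comparison, 108 as reported, numbered 31 with no filter, 166 at a mean of at least 1 FPKM, 224 with 75th percentile scaling, 234 with quantile normalization, 22 with 6 libraries, 18 with no trend, 49 with the most abundant transcript and 23 with the block. Leaving out 1 library gave 0 to 4 collagens and 2 to 141 genes there, 8 to 11 collagens and 2761 to 3830 genes in dbdb vs Control, and 9 to 15 collagens and 2479 to 3569 genes in dbR vs Control. The type IV sum of dbdb relative to Control was 0.958 as reported and 1.07 with mitochondrial genes left out, a rescaling that raises dbdb against Control. Leaving out the most abundant gene of a class, an alternative chosen after seeing the data, moved 7 ratios of summed FPKM by more than their spread. The fibrillar ratio, without Col27a1, went from 1.23 to 0.675 in dbdb vs Control (0.817 without Control replicate 1 as well) and from 1.02 to 1.58 in dbR vs dbdb. The basement membrane zone ratio, without Col18a1, went from 1.19 to 0.554 in dbdb vs Control, from 1.01 to 1.21 in dbR vs dbdb and from 1.20 to 0.668 in dbR vs Control. The FACIT ratio, without Col14a1, went from 1.54 to 1.01 in dbR vs dbdb and from 1.49 to 0.848 in dbR vs Control.

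Every comparison of the collagens called anywhere and of Col1a1, Col1a2, Col3a1 and Col4a1 to Col4a5 was recomputed. Those values that changed sign, none of them called, were these. In dbdb vs Control, Col1a2 (-0.10; -0.33 to 0.16 on leaving out 1 library) became 0.05 with mitochondrial genes left out, 0.16 without Control replicate 1 and 0.05 without dbdb replicate 1. Col4a1 (-0.01; -0.06 to 0.06) became 0.01 with 75th percentile scaling, 0.07 with quantile normalization, 0.15 with mitochondrial genes left out, 0.02 without Control replicate 2 and 0.06 without dbdb replicate 1. Col4a4 (0.01; -0.07 to 0.09) became -0.05 without Control replicate 3 and -0.07 without dbdb replicate 2. Col4a2 (0.05; 0.00 to 0.09) was 0.00 at its lowest and is not counted as a change of sign. A rounded 0.00 can lie on either side of 0. Col14a1 (0.01; -0.19 to 0.17) became -0.11 with the most abundant transcript, -0.04 without Control replicate 2, -0.10 without Control replicate 3 and -0.19 without dbdb replicate 3. Col6a3 (-0.12; -0.28 to 0.07) became 0.04 with mitochondrial genes left out, 0.29 with the most abundant transcript and 0.07 without dbdb replicate 1. In dbR vs dbdb, Col4a5 (-0.01; -0.07 to 0.05) became 0.02 with 75th percentile scaling, 0.02 with quantile normalization, 0.05 without dbdb replicate 2 and 0.02 without dbR replicate 3. Col18a1 (-0.01; -0.11 to 0.06) became 0.02 with 75th percentile scaling, 0.03 with the most abundant transcript, 0.01 without dbdb replicate 2, 0.06 without dbdb replicate 3 and 0.01 without dbR replicate 3. Col12a1 (-0.04; -0.12 to 0.08) became 0.21 with the most abundant transcript, 0.08 without dbdb replicate 1 and 0.07 without dbR replicate 3. Col6a6 (0.10; -0.05 to 0.25) became 0.00 without dbdb replicate 3 and -0.05 without dbR replicate 2, and Col13a1 (-0.08; -0.20 to 0.03) became 0.01 and 0.03 without the same libraries. In dbR vs Control, Col1a1 (-0.13; -0.36 to 0.17) became 0.17 without Control replicate 1. The cause was not tested.

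Replicate numbers do not pair the mice in the labels, and residuals of libraries with the same number correlated between -0.175 and 0.062 across genes, which are not independent replicates. With the replicate number as a block, 3345, 23 and 3030 genes and 10, 0 and 14 collagens were called in dbdb vs Control, dbR vs dbdb and dbR vs Control, and for dbR vs dbdb 11 collagens and 2349 of all genes had an unadjusted p under 0.05. A minimum mean of 1 FPKM gave no value for Col13a1, Col19a1 and Col6a6. FPKM without counts gives no counting error, and low genes rest on few fragments.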
